A study of Mus musculus with 123 samples.

Results

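The genes described here encode carriers of amino acids, sugars, monocarboxylates and related small solutes in single mouse embryos that lacked the transcription factor Oct4 (gene symbol Pou5f1) or Sox2. They are the protein-coding genes of the solute carrier families Slc1, Slc3, Slc7, Slc38, Slc43, Slc6, Slc2, Slc5 and Slc16 that had at least 1 transcript count in 50% or more of the embryos of at least 1 stage. Of 92 genes of these families in the table, 54 met the rule and 38 did not. The members were 4 of 7 Slc1 genes, 2 of 2 Slc3 genes, 11 of 15 Slc7 genes, 9 of 11 Slc38 genes, 2 of 3 Slc43 genes, 9 of 21 Slc6 genes, 5 of 10 Slc2 genes, 6 of 10 Slc5 genes and 6 of 13 Slc16 genes. One of them, Slc7a6os, shares only the start of its name with Slc7a6, its neighbour 2010 bases away, and is not a transporter, which leaves 53 transporter genes. Slc7a9 was just inside the rule, with a count in 51.3% of the morulae, and Slc5a8 was just outside it, with a count in 47.7% of the early inner cell masses (ICMs).

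Transcripts were counted in single B6C3F1 embryos, 48 Ctrl, 48 KO and 27 MWT, from an Oct4 line and a Sox2 line. Males heterozygous for a knockout allele that carries a fluorescent reporter (Oct4 +/mKO2 or Sox2 +/EGFP) were crossed to flox/flox females in which ZP3-Cre, active in the growing oocyte, had removed the maternal gene. KO embryos had the reporter allele, picked by fluorescence, and so had neither a maternal nor a zygotic copy of the gene. Ctrl embryos also lacked the maternal gene but kept 1 intact paternal allele, so that no Ctrl embryo was wild type. In MWT embryos the mother had kept the gene. Each line had 8 Ctrl and 8 KO embryos at each of 3 stages, namely whole morulae at E2.75, early ICMs at E3.75 and late ICMs at E4.5, and there were 7 Oct4 MWT morulae, 5 Oct4 MWT early ICMs, 8 Oct4 MWT late ICMs and 7 Sox2 MWT early ICMs. The embryos for ICMs were cultured from E2.5 in KSOM medium with 1 μM PD0325901, a MEK inhibitor that holds back the primitive endoderm, and immunosurgery then removed the trophectoderm. Stage therefore cannot be told apart from culture and isolation. The labels give no litters, so p-values measure the spread between single embryos. The sample title and source name disagreed on the stage of all 13 Oct4 MWT ICMs, and the title was used. The labels of the 5 Oct4 MWT early ICMs give no inhibitor treatment, while those of the other ICMs do.

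Early embryos take up free amino acids and, at first, mainly pyruvate and lactate, and then glucose as the blastocyst forms. Amino acid carriers fall into exchangers that trade 1 amino acid for another, such as Slc7a5 paired with the heavy chain Slc3a2, sodium-driven pumps such as the Slc38 carriers, and facilitators for cationic amino acids such as Slc7a1 and Slc7a3. Glucose enters through the facilitators of the Slc2 family, lactate and pyruvate move with protons through Slc16a1, and several Slc6 and Slc5 carriers bring in osmolytes, creatine or vitamins. Several of the exchangers are textbook targets of the amino acid response, in which the transcription factor ATF4 raises transcription of carriers and of amino acid synthesis genes when amino acids are short.

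The depth was 525755 to 1344035 unique molecular identifiers (UMIs, tags that let PCR copies be counted once) per embryo, with a median of 897410, so 1 UMI was worth at most 1.90 CPM (a gene's UMIs per 1000000 UMIs of the embryo) in any library. The library reads the 3′ end of each transcript, which is counted once whatever its length, so CPM is a level per molecule and not per base. Pou5f1 checked the Oct4 KO labels: its median was 23.1, 84.6 and 43.8 CPM in the Ctrl morulae, early ICMs and late ICMs, against 0, 0.520 and 0 CPM in the KO groups. Sox2 was 12.4, 94.0 and 169 CPM in the Sox2 Ctrl groups and 1.81, 24.3 and 13.7 CPM in the Sox2 KO groups, lower but not at 0. The 7 epiblast genes, summed, were at 504 to 1022 CPM (median 727) in Oct4 KO late ICMs against 2029.7 to 3361 CPM (median 2554) in Ctrl, and 6 of the 7 were called lower there. That sum was also lower, with no overlap, in Oct4 KO early ICMs, at 1148 to 1566 CPM (median 1294) against 1735 to 2713 CPM (median 2056). It was 1279 to 2035 CPM (median 1552) in Sox2 KO against 2348 to 3997 CPM (median 2752) in Ctrl late ICMs, again with no overlap, and 1211 to 1598 CPM (median 1354) against 1437 to 3253 CPM (median 1681) with overlap in early ICMs. The 10 trophectoderm genes, summed, were at 1262 to 3186 CPM (median 2817) in Oct4 KO late ICMs against 153 to 1039.6 CPM (median 655) in Ctrl, and 8 of the 10 were called higher there. In Sox2 late ICMs the trophectoderm sum was 596 to 1821 CPM (median 912) in KO and 175 to 2851 CPM (median 456) in Ctrl. In early ICMs that sum was 476 to 1368 CPM (median 829.35) in Oct4 KO against 162 to 1282 CPM (median 404) in Ctrl. In the Sox2 line it was 513 to 1987 CPM (median 783) against 145 to 495 CPM (median 377). In Oct4 KO early ICMs 2 of the 10 were called higher and 1 lower. The counts in Sox2 KO ICMs were 4 higher and 0 lower early, and 3 and 1 late. Of 6 primitive endoderm genes tested, 2 were called higher and 4 lower in Oct4 KO late ICMs. The 8 genes of the list, summed, were at 743 to 1439 CPM (median 1197) against 206 to 1146 CPM (median 555) in Ctrl, with none at 0 in either group. In Oct4 early ICMs their sum was 616 to 1004 CPM (median 859) in KO against 478 to 784 CPM (median 596) in Ctrl. Of the 6 tested, 1 was called higher and 2 lower in that KO group. The trophoblast genes Hand1 and Ascl2, nearly all of it Hand1, summed to 379.8 to 708 CPM (median 547) in Oct4 KO morulae against 54.8 to 287 CPM (median 222) in Ctrl, without overlap. That sum was 78.4 to 498 CPM (median 222) against 30.4 to 159 CPM (median 80.7) in Oct4 early ICMs and 2.33 to 219.8 CPM (median 62.5) against 0 to 36.2 CPM (median 8.11) in late ICMs. Hand1 was called higher at all 3 stages. Oct4 MWT late ICMs, whose mothers had kept the gene, held 5.94 to 310.8 CPM (median 88.5) of that sum. The 1 trophoblast gene tested between MWT and Ctrl was called higher in these MWT late ICMs (log2 fold change 2.93). None of the 10 trophectoderm genes was at 0 in any ICM group. The part of trophectoderm, trophoblast or primitive endoderm cells in the transporter values below was not tested. Fewer cells of a type and less RNA per cell cannot be told apart in these libraries.

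Together the 54 members took a small share of all UMIs, given here as a description with no test. In late ICMs of the Oct4 line it was 0.213 to 0.344% (median 0.284%) in Ctrl and 0.324 to 0.637% (median 0.532%) in KO. In early ICMs of the same line it was 0.197 to 0.289% (median 0.244%) in Ctrl and 0.277 to 0.537% (median 0.370%) in KO. The corresponding late ICM shares of the Sox2 line were 0.222 to 0.301% (median 0.259%) and 0.258 to 0.401% (median 0.306%), with overlapping ranges. The families differed in Oct4 late ICMs. Mean summed CPM was 822 in Ctrl and 2171 in KO for Slc6, 491 and 1337 for Slc2, and 41.3 and 233 for Slc5. It was also higher in KO for Slc16 and Slc38, and lower for Slc1, Slc3, Slc43 and Slc7 (384 and 274 for Slc7). The most abundant members in Ctrl late ICMs of the Oct4 line, by median, were the creatine transporter Slc6a8 (693 CPM), the heavy chain Slc3a2 (336 CPM), the glucose transporter Slc2a3 (274 CPM) and the neutral amino acid carrier Slc38a4 (234 CPM).

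No transporter gene was called in KO morulae of either line, and 28 of the 54 members were called in Oct4 KO late ICMs. Calls were made by edgeR's quasi-likelihood test over all 14053 genes tested. A call needed an adjusted p (Benjamini-Hochberg) under 0.05 and a log2 fold change of 1 or more in either direction. In Oct4 KO morulae 0 of the 54 members were called, where the background was 0.178% of all genes higher and 0.626% lower, while 6 members had an unadjusted p under 0.05 and DESeq2 called 1. In Sox2 KO morulae 0 were called by edgeR and 0 by DESeq2, with 2 at an unadjusted p under 0.05 and a background of 0% of all genes higher and 0.00712% lower. In Oct4 KO early ICMs 7 members rose and 7 fell, against 4.77% of all genes higher and 6.11% lower. In Oct4 KO late ICMs 15 rose and 13 fell, against 9.25% of all genes higher and 8.85% lower. Fewer members were called after Sox2 loss, 1 higher and 4 lower in early ICMs (1.57% and 1.69% of all genes) and 4 higher and 7 lower in late ICMs (3.34% and 3.61%, or 469 and 508 genes, which became 379 and 628 when libraries were scaled by totals). The median log2 fold change over the members was 0.30 in late ICMs of the Oct4 KO and -0.06 in those of the Sox2 KO. Over all genes it was -0.01 and 0.00.

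**Figure D1:**
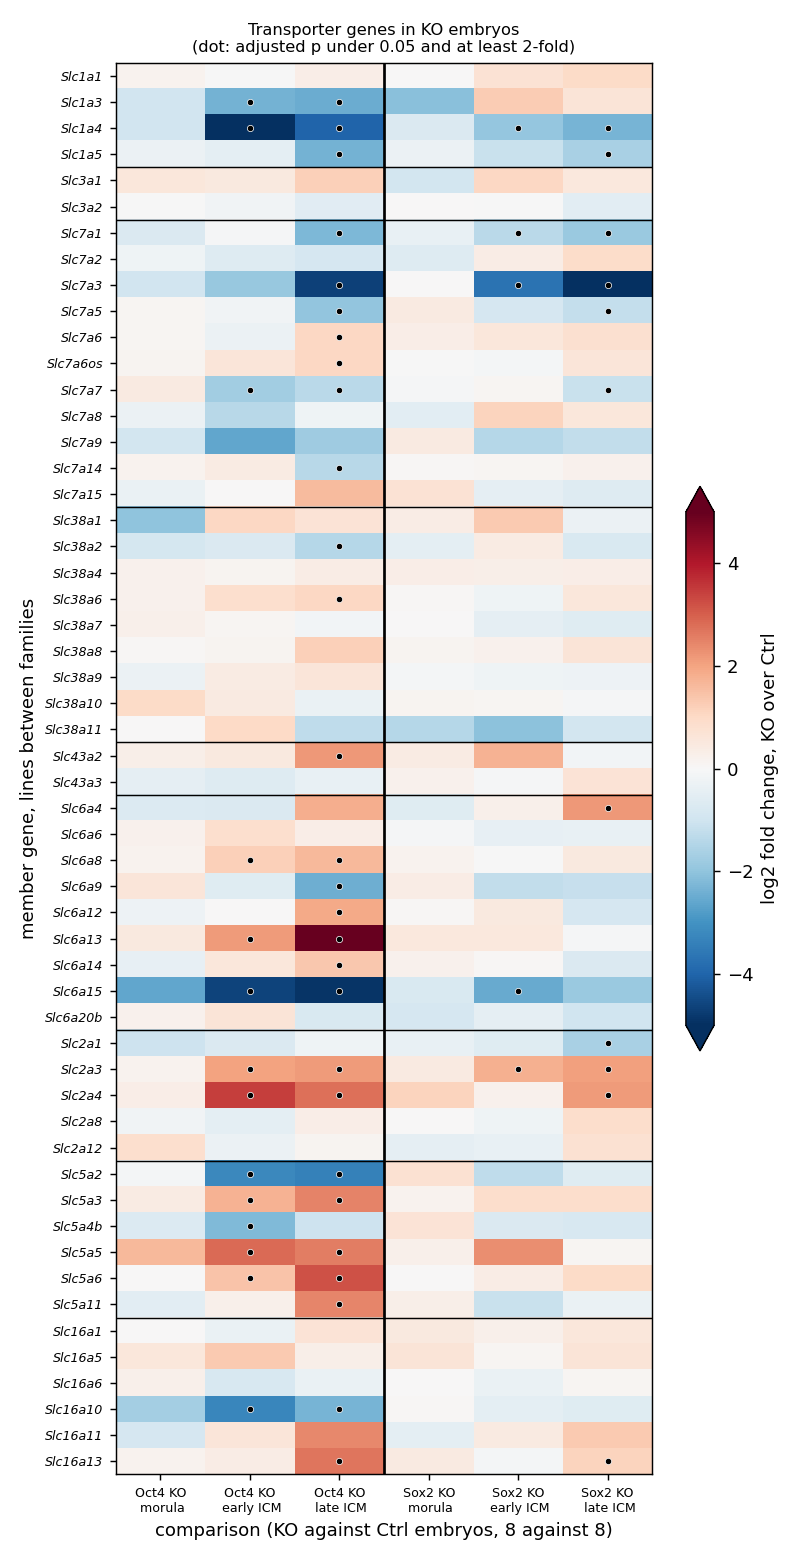
Log2 fold change, KO against Ctrl, of the 54 members (lines, grouped by family) in the 6 KO comparisons (columns), coloured from blue (lower in KO) to red (higher), with a black dot on each called change. The 2 morula columns hold no called change, and the Oct4 late ICM column holds the most, 15 higher and 13 lower.

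The members that fell in both lines were carriers of amino acids. At the late ICM stage 6 genes were lower after loss of either factor: Slc7a3, Slc1a4, Slc7a1, Slc1a5, Slc7a5 and Slc7a7. These genes made up 6 of the 13 members that fell in the Oct4 line and 6 of the 7 that fell in the Sox2 line. The corresponding shares over all genes were 26.8% and 65.6%. In early ICMs Slc1a4 and Slc6a15 fell in both lines, 2 of 7 members in the Oct4 line and 2 of 4 in the Sox2 line (13.5% and 48.7% over all genes). Slc2a3 rose in both lines at both ICM stages, and Slc2a4 and Slc16a13 in both in late ICMs. That makes 3 of 15 members higher in the Oct4 line and 3 of 4 in the Sox2 line in late ICMs (16.4% and 45.4% over all genes). The lines share no embryos, so these counts come from separate Ctrl and KO groups.

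The promoters of these 6 genes are shown where a window was at hand, since the 6 were called lower in both late ICM comparisons. RefSeq promoter windows (GRCm38.p6, 250 bases before to 50 after a transcript start) were found for 39 of the 54 members, and among the 6 for Slc1a4, Slc7a1 and Slc7a7. The 250 bases before the start are given 5′ to 3′ for Slc1a4, chr11:20332714-20332963 (- strand), and Slc7a1, chr5:148399905-148400154 (- strand), at the starts that match the gene end in the count table. Slc7a1 had another window, at a start inside the gene. None of the 5 windows of Slc7a7 starts at the gene end in the table, and they are not shown. Capitals mark GC boxes, the letters GGGCGG on either strand.
Slc1a4: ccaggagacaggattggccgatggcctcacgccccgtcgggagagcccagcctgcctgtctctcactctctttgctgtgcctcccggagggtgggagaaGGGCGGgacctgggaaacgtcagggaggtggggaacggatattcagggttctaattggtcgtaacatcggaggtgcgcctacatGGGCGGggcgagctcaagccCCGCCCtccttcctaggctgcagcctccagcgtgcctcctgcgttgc
Slc7a1: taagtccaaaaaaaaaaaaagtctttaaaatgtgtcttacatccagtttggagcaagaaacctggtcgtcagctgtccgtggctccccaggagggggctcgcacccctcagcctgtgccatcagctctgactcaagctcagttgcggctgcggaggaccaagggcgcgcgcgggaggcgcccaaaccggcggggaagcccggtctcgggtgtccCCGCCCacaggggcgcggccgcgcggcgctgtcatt
Slc1a4 held 3 GC boxes, which began 151, 67 and 47 bases before the start, and the Slc7a1 window shown held 1, which began 36 bases before it, with a GC content of 64.8% and 62.4%. GC boxes are common in promoters and were found in 35.7% of all 32851 windows and in 32 of the 59 windows of members (54.2%). The octamer ATGCAAAT, the letters that Oct factors bind, was in 1.74% of all windows and in 1 member window (1.69%), that of the betaine carrier Slc6a12, and the element TGATGNAAT of C/EBP and ATF factors was in 0.965% of all windows and in 0 of the 59. CACGTG, the E-box, was in 7.15% of all windows and in 3 of those of members (5.08%), namely Slc16a1, Slc38a7 and Slc7a14, and TATAAA in 13.6% and in 6 (10.2%), among them the Slc7a1 window not shown, where it began 28 bases before the start. Both strands were searched, none of these motifs contains another, and letters outside the windows were not searched.

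Slc7a3, which encodes a cationic amino acid transporter of the plasma membrane that carries arginine and lysine (chrX:101079210-101086020, mm10), was nearly lost in both KO lines. In Oct4 Ctrl late ICMs its lowest, median and highest values were 13.4, 34.7 and 85.6 CPM, and in Oct4 KO late ICMs 0, 0 and 5.96 CPM. In the Sox2 line they were 5.89, 33.5 and 88.7 CPM in Ctrl and 0, 0 and 3.49 CPM in KO. Every KO late ICM was below every Ctrl late ICM of its line, and the median KO embryo had no UMI in either line. The log2 fold change was -4.66 (SE 0.63, adjusted p = 2.05e-09) in the Oct4 line and -5.35 (SE 0.66, adjusted p = 8.83e-10) in the Sox2 line. In early ICMs the median was 1.72 CPM in Oct4 Ctrl and 1.73 CPM in Sox2 Ctrl, where 3 of the 8 embryos were at 11.1 to 22.1 CPM. From morula to early ICM Slc7a3 rose in the Sox2 Ctrl (log2 fold change 4.80, SE 0.90, adjusted p = 3.61e-06) and stood at 1.32 (adjusted p = 0.186) in the Oct4 Ctrl. The Sox2 Ctrl call was not made in either fit of the embryos with shared replicate numbers (adjusted p up to 0.668). Slc7a3 was called lower in Sox2 KO early ICMs (log2 fold change -3.67, SE 0.82, adjusted p = 0.00126), whose 8 embryos together held 3 UMIs against 52 in Ctrl.

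Slc1a4, a sodium-dependent exchanger of alanine, serine, cysteine and threonine (chr11:20302180-20332713), was lower in all 4 ICM comparisons. It came on with the ICM, from medians of 0 and 0.396 CPM in Oct4 and Sox2 Ctrl morulae. In Oct4 early ICMs the 8 Ctrl embryos held 80 UMIs, from 1.22 to 32.9 CPM, median 7.35, and the 8 KO embryos 0, at least 27.2-fold lower against a floor of 3 UMIs over the group. In late ICMs the values were 16.4, 25.2 and 32.3 CPM in Oct4 Ctrl against 0, 0.582 and 4.77 CPM in Oct4 KO, with no overlap (log2 fold change -3.99, SE 0.57, adjusted p = 1.50e-08). In the Sox2 line they were 14.1, 23.4 and 38.7 CPM against 0, 3.79 and 10.5 CPM, again without overlap (log2 fold change -2.33, SE 0.46, adjusted p = 7.47e-05). Sox2 KO early ICMs ran from 1.04 to 6.45 CPM (median 2.70) against 2.85 to 32.1 CPM (median 10.4) in Ctrl (log2 fold change -1.92, SE 0.49, adjusted p = 0.00606). The early effect of Oct4 loss minus that of Sox2 loss in log2 fold change came to -4.40 (SE 1.12, adjusted p = 0.00605). With the Oct4 KO group at 0 UMIs, the size of this difference depends on the fit. The same difference in late ICMs was -1.66 (adjusted p = 0.187).

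Slc1a5, the exchanger best known for bringing glutamine into dividing cells (chr7:16781340-16798274), was 20.5, 71.4 and 108 CPM at its lowest, median and highest in Oct4 Ctrl late ICMs and 5.80, 10.3 and 19.3 CPM in Oct4 KO late ICMs, with every KO embryo below every Ctrl embryo in CPM, though the nearest embryos of both groups held 15 UMIs. The log2 fold change was -2.35 (SE 0.42, adjusted p = 2.98e-06). Late ICMs of the Sox2 line had 44.8, 102 and 117 CPM in Ctrl and 4.95, 24.7 and 56.9 CPM in KO, with overlapping ranges and a log2 fold change of -1.60 (SE 0.36, adjusted p = 6.57e-04). Slc7a5, the large neutral amino acid exchanger that takes in leucine against glutamine (chr8:121881150-121907694), showed the same order. Its values were 56.1, 132 and 162 CPM in Oct4 Ctrl and 18.7, 27.3 and 50.1 CPM in Oct4 KO late ICMs, apart in CPM (log2 fold change -1.97, SE 0.29, adjusted p = 3.45e-08), though the nearest embryos held 41 UMIs in Ctrl and 42 in KO. In the Sox2 line they were 47.4, 106 and 176 CPM and 17.6, 28.3 and 94.9 CPM (log2 fold change -1.18, SE 0.28, adjusted p = 0.00116). At the early ICM stage neither gene was called in either line, with Slc7a5 at medians of 23.3 and 21.8 CPM in Oct4 Ctrl and KO.

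Slc7a1, the widely expressed cationic amino acid carrier (chr5:148327410-148399904), fell in 3 of the 4 ICM comparisons. It was 16.4, 39.9 and 100.3 CPM in Oct4 Ctrl late ICMs and 1.45, 8.37 and 17.4 CPM in KO (log2 fold change -2.24, SE 0.42, adjusted p = 7.75e-06). The Sox2 late ICMs had 20.02, 46.1 and 106 CPM in Ctrl and 1.65, 10.9 and 40.4 CPM in KO (log2 fold change -1.84, SE 0.38, adjusted p = 2.02e-04), where 1 KO embryo at 40.4 CPM stood above the other 7. In Sox2 early ICMs the values were 5.45, 19.5 and 42.0 and 3.89, 8.26 and 11.8 CPM (log2 fold change -1.36, SE 0.43, adjusted p = 0.0345), a call not made when the 2 groups were fitted alone (adjusted p = 0.0535) or in either fit of the embryos with shared replicate numbers (adjusted p = 0.111 with and 0.239 without the number as a block). Slc7a7, a subunit of the exchanger that exports cationic for neutral amino acids (chr14:54369442-54417780), overlaps Oxa1l on the opposite strand, and whether the counting used the strand is not stated, so their reads may be mixed. It was 12.5, 32.1 and 97.0 CPM in Oct4 Ctrl and 2.80, 10.9 and 42.9 CPM in KO late ICMs (log2 fold change -1.36, SE 0.39, adjusted p = 0.00369), and 12.7, 24.3 and 35.5 and 0, 7.20 and 24.2 CPM in the Sox2 line (log2 fold change -1.11, SE 0.40, adjusted p = 0.0489). The Sox2 call of Slc7a7 was not made under 7 of 10 alternatives, among them the fit without 3 Ctrl ICMs whose summed trophectoderm markers were above 1200 CPM (log2 fold change -0.91, adjusted p = 0.151). That fit kept all KO ICMs. It also lost the Slc7a7 call in Oct4 early ICMs, which went from -1.74 (adjusted p = 0.00661) to -1.23 (adjusted p = 0.0826).

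**Figure D2:**
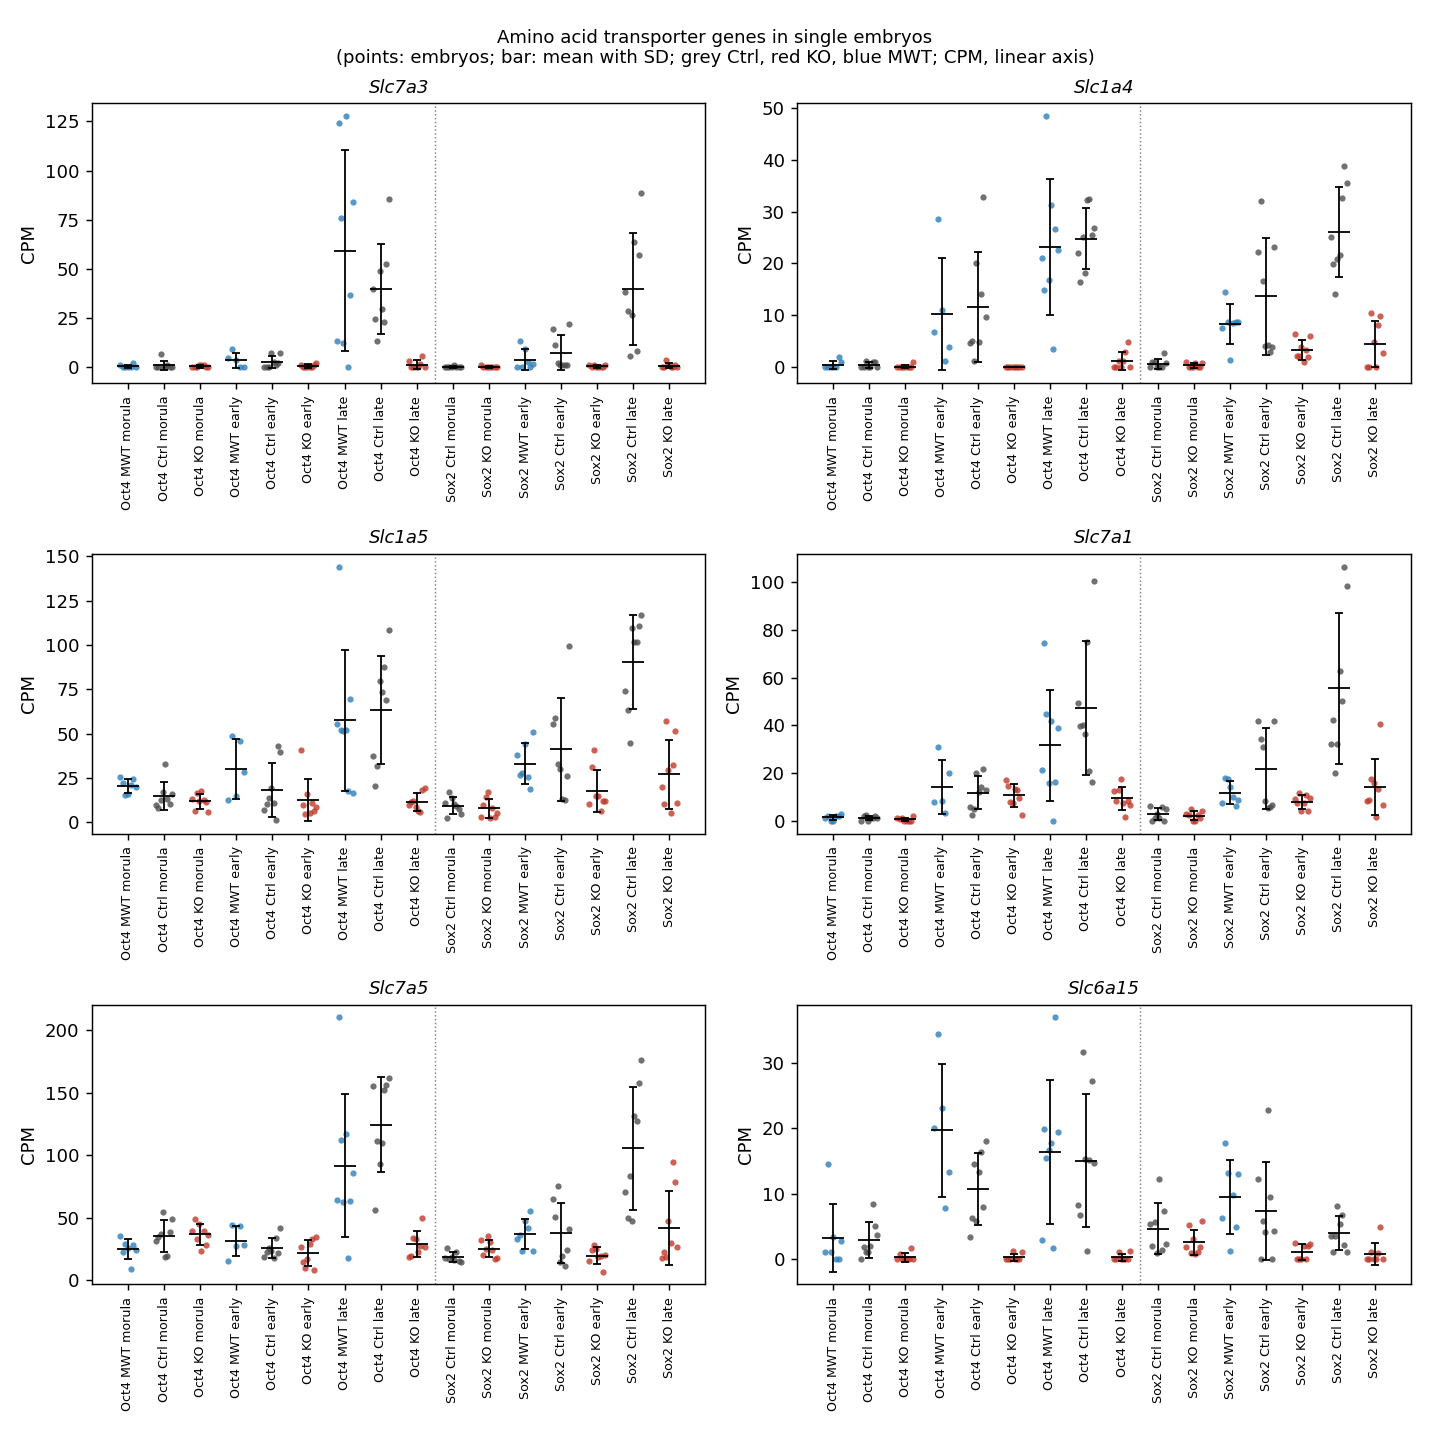
CPM (y axis, linear) of 6 amino acid carrier genes in every embryo, by group (x axis), with the mean and SD as bars; grey marks Ctrl, red KO and blue MWT embryos. Slc7a3 has means of 39.7 CPM in the Ctrl late ICMs of both lines and of 1.32 and 0.742 CPM in the Oct4 and Sox2 KO late ICMs.

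The partner and sister genes of these exchangers are given next. Slc3a2, the heavy chain that Slc7a5, Slc7a6, Slc7a7 and Slc7a8 need to reach the membrane, was 256, 336 and 401 CPM in Oct4 Ctrl late ICMs and 155, 208 and 297 CPM in KO, with a log2 fold change of -0.57 (SE 0.16, adjusted p = 0.00401) that is under the size limit of 1. The Sox2 late ICMs gave -0.52 (SE 0.16, adjusted p = 0.0193). Slc7a6, which like Slc7a7 pairs with Slc3a2 to exchange cationic for neutral amino acids, was higher in Oct4 KO late ICMs (log2 fold change 1.05, SE 0.17, adjusted p = 5.39e-07), with medians of 92.6 CPM in Ctrl and 169.8 CPM in KO. The call of Slc7a6, of its neighbour Slc7a6os (1.04) and of Slc38a6 (1.02), all just past the size limit, was not made when libraries were scaled by their totals alone. Slc7a6 in Sox2 KO late ICMs stood at 0.78 (SE 0.17, adjusted p = 3.23e-04), and was called (1.04, adjusted p = 3.94e-06) without the 3 Ctrl ICMs high in trophectoderm markers. Slc7a8, another large neutral exchanger, was called in no KO comparison, but its early effect differed between lines by -2.52 (SE 0.79, adjusted p = 0.031), with medians of 3.73 CPM in Oct4 Ctrl, 0.607 in Oct4 KO, 3.21 in Sox2 Ctrl and 7.27 in Sox2 KO early ICMs. Slc7a14, whose protein resembles the cationic carriers, was lower in Oct4 KO late ICMs (log2 fold change -1.38, SE 0.48, adjusted p = 0.0204), a call not made with the first digit of the embryo labels as a block.

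Other amino acid carriers fell in Oct4 KO ICMs. Slc6a15, a sodium-driven carrier of branched-chain amino acids and proline, ran from 3.45 to 18.1 CPM (median 10.7) in Oct4 Ctrl early ICMs and from 0 to 1.22 CPM (median 0) in KO, and from 1.34 to 31.7 CPM (median 14.97) and 0 to 1.29 CPM (median 0) in late ICMs. KO and Ctrl embryos did not overlap in early ICMs. In late ICMs the lowest Ctrl and the highest KO embryo held 1 UMI each, so that only library size set them apart. The log2 fold change was -4.61 (SE 0.76, adjusted p = 1.32e-06) early and -4.90 (SE 0.77, adjusted p = 1.60e-07) late. It was also lower in Sox2 KO early ICMs (log2 fold change -2.54, SE 0.64, adjusted p = 0.00548), a call not made in either fit of the embryos with shared replicate numbers. In Sox2 late ICMs it was -1.85 (adjusted p = 0.0795), and called (-2.15, adjusted p = 0.0465) without the 3 Ctrl ICMs high in trophectoderm markers. Slc16a10, which belongs to the monocarboxylate family but carries aromatic amino acids, went from 10.9, 20.2 and 30.6 CPM in Oct4 Ctrl to 0, 1.77 and 4.86 CPM in KO early ICMs without overlap (log2 fold change -3.25, SE 0.52, adjusted p = 8.11e-07) and was also lower in late ICMs (log2 fold change -2.31, SE 0.57, adjusted p = 7.43e-04). In Sox2 early ICMs Slc16a10 was -0.49 (SE 0.41, adjusted p = 0.555), and the line difference of -2.76 passed the test (adjusted p = 0.0041). Slc1a3, a glutamate carrier, was lower in Oct4 KO early (-2.37, adjusted p = 0.0148) and late ICMs (-2.49, adjusted p = 0.00749) at Ctrl medians of 2.32 and 2.30 CPM. In the Sox2 KO it was 1.25 (adjusted p = 0.0734) and 0.65 (adjusted p = 0.395). The line difference of Slc1a3 was -3.62 early (adjusted p = 0.00331) and -3.15 late (adjusted p = 0.0149). Slc1a1, the more abundant glutamate and cysteine carrier, was not called but stood at 0.95 (SE 0.16, adjusted p = 3.23e-06) in Sox2 KO late ICMs.

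Slc38a2, a sodium-driven importer of alanine and glutamine that cells raise when amino acids are short, was 11.7, 45.1 and 122 CPM in Oct4 Ctrl and 2.33, 16.1 and 40.5 CPM in Oct4 KO late ICMs, with overlapping ranges (log2 fold change -1.44, SE 0.46, adjusted p = 0.00986). The Sox2 line had 28.5, 57.1 and 118 CPM in Ctrl and 9.09, 34.2 and 82.1 CPM in KO (log2 fold change -0.75, SE 0.41, adjusted p = 0.236), which did not pass the test. Slc6a9, a glycine carrier of the early embryo, was 1.39, 6.54 and 10.9 CPM in Oct4 Ctrl and 0, 0.699 and 2.90 CPM in KO late ICMs (log2 fold change -2.46, SE 0.73, adjusted p = 0.0054), and it overlaps B4galt2 and Ccdc24 on the opposite strand. Slc38a4, a carrier of small neutral amino acids, had log2 fold changes of 0.15 to 0.36 over the 6 KO comparisons and was called in none. Of the other Slc38 members, Slc38a1, Slc38a7, Slc38a8, Slc38a10, Slc38a11 and Slc38a9, the lysosomal arginine sensor, were called in none either. Slc43a2, an exporter-type carrier of large neutral amino acids, was higher in Oct4 KO late ICMs (log2 fold change 2.18, SE 0.72, adjusted p = 0.014) at a KO median of 5.44 CPM.

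Among the sugar carriers, Slc2a3 rose in all 4 ICM comparisons. It encodes GLUT3, a high-affinity glucose facilitator (chr6:122727809-122801640). In Oct4 early ICMs the lowest, median and highest values were 141, 265 and 549 CPM in Ctrl and 628, 1189.8 and 1573 CPM in KO, and in late ICMs 75.2, 274 and 592 CPM and 772, 1175 and 1664 CPM. All 8 KO embryos were above all 8 Ctrl embryos at both stages (log2 fold change 2.00, SE 0.32, adjusted p = 8.29e-07 early and log2 fold change 2.12, SE 0.33, adjusted p = 9.72e-08 late). The Sox2 late ICMs had 44.4, 151 and 397 CPM in Ctrl and 479, 685 and 1155 CPM in KO, again apart (log2 fold change 2.05, SE 0.33, adjusted p = 1.09e-06). In Sox2 early ICMs the ranges overlapped, at 44.9, 109 and 255 CPM and 202, 422 and 672 CPM (log2 fold change 1.79, SE 0.33, adjusted p = 5.38e-05). The Sox2 Ctrl early ICMs were also lower than the 7 Sox2 MWT early ICMs, which held 138, 378 and 947 CPM with overlapping ranges (log2 fold change 1.66, SE 0.34, adjusted p = 5.55e-04), and both of these differences rest on the same 8 Ctrl embryos. The primitive endoderm sum was also higher in these MWT ICMs, at 858 to 1325 CPM (median 1108) against 89.9 to 735 CPM (median 584) without overlap, and its part in this difference was not tested. The Oct4 MWT late ICMs were at 166, 316 and 490.2 CPM, with a median within the range of their Ctrl.

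Slc2a1, which encodes GLUT1, the main glucose facilitator of the blastocyst, fell in Sox2 KO late ICMs and was called in no other KO comparison. In Sox2 early ICMs the log2 fold change was -0.61 (SE 0.29, adjusted p = 0.209). In Sox2 late ICMs it was 61.0, 122.97 and 239 CPM in Ctrl and 16.2, 36.4 and 73.2 CPM in KO, with overlapping ranges (log2 fold change -1.64, SE 0.30, adjusted p = 1.88e-05). In Oct4 late ICMs it was 79.0, 133 and 286 CPM in Ctrl and 24.6, 136 and 236 CPM in KO (log2 fold change -0.20, SE 0.28, adjusted p = 0.633), and the effects of the 2 lines differed by 1.44 (SE 0.40, adjusted p = 0.0133). Its reads may include those of Gm12868 and Gm12867, which overlap it on the opposite strand. Slc2a4, which encodes the insulin-responsive facilitator GLUT4, was at 0 in the median Ctrl late ICM of both lines and rose in 3 comparisons: to a median of 4.90 CPM in Oct4 KO early ICMs (log2 fold change 3.46, SE 0.70, adjusted p = 8.79e-05), 3.83 CPM in Oct4 KO late ICMs (log2 fold change 2.748, SE 0.76, adjusted p = 0.00287) and 2.88 CPM in Sox2 KO late ICMs (log2 fold change 2.11, SE 0.70, adjusted p = 0.029). These are a few UMIs per embryo, and the Sox2 call was not made with no filter. Slc2a8 and Slc2a12, also of the Slc2 family, were called in no KO comparison, and Slc2a8 stood at 0.90 (SE 0.21, adjusted p = 9.13e-04) in Sox2 KO late ICMs.

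The Slc5 family, sodium-driven carriers of sugars, inositol, iodide and vitamins, had 5 of its 6 members called at each of the early and late ICM stages of the Oct4 KO, where 10.9% and 18.1% of all genes were called. In the Sox2 early and late ICM comparisons 0 of the 6 were called by edgeR, where 3.27% and 6.95% of all genes were, with 4 and 2 at an unadjusted p under 0.05. Slc5a6, the carrier of biotin and pantothenate (chr5:31036036-31048924), was 40.9, 68.6 and 102 CPM in Oct4 Ctrl and 67.7, 201 and 241 CPM in KO early ICMs (log2 fold change 1.41, SE 0.25, adjusted p = 7.64e-06). In late ICMs it was 7.27, 19.6 and 38.8 CPM and 116, 159 and 364 CPM, with every KO embryo above every Ctrl embryo (log2 fold change 3.18, SE 0.30, adjusted p = 1.58e-15). In Sox2 late ICMs the medians were 26.6 and 51.8 CPM (log2 fold change 0.96, SE 0.28, adjusted p = 0.0125), just under the size limit, and the effect was larger in the Oct4 line by 2.22 (SE 0.41, adjusted p = 6.64e-05). Slc5a6 overlaps Atraid on the opposite strand. Slc5a11, an inositol carrier, was 0, 5.24 and 12.7 CPM in Oct4 Ctrl and 15.4, 30.6 and 46.4 CPM in KO late ICMs without overlap (log2 fold change 2.45, SE 0.43, adjusted p = 2.64e-06), and its line difference was 2.77 (adjusted p = 8.47e-04). Slc5a3, the other inositol carrier, overlaps Mrps6 on the same strand, so their reads cannot be told apart with certainty. It was 0, 3.43 and 10.7 CPM in Oct4 Ctrl and 3.12, 23.2 and 37.3 CPM in KO late ICMs, with overlapping ranges (log2 fold change 2.498, SE 0.42, adjusted p = 7.98e-07), and it was higher in early ICMs as well (log2 fold change 1.75, SE 0.42, adjusted p = 8.86e-04).

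The remaining Slc5 members had fewer counts. Slc5a2, a kidney glucose pump, fell in Oct4 KO early ICMs (log2 fold change -3.23, SE 0.82, adjusted p = 0.00194) and in late ICMs, where the 8 Ctrl embryos held 7 UMIs and the 8 KO embryos 0, at least 2.62-fold lower against the floor. Slc5a4b, a relative of the glucose pumps, fell in Oct4 KO early ICMs from 3.56, 15.5 and 43.7 CPM to 1.22, 2.98 and 9.37 CPM (log2 fold change -2.21, SE 0.49, adjusted p = 3.20e-04). Slc5a5, the iodide carrier, had 6 UMIs in Oct4 KO early ICMs and 0 in Ctrl, at least 1.96-fold higher, and its call in late ICMs, on 10 UMIs in KO and 1 in Ctrl, was not made under 5 of 7 alternatives. The early call was not made under 4 of 6, among them DESeq2 and the fit without the 3 Ctrl ICMs high in trophectoderm markers (adjusted p = 0.0631). The fitted log2 fold change was 2.84 with those ICMs and 2.86 without them. Its size depends on the fit, as the Ctrl group was at 0 UMIs. The late call of Slc5a2 was not made by DESeq2.

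Of the 9 Slc6 members 4 rose and 2 fell in Oct4 KO late ICMs, where 9.25% of all genes were higher and 8.85% lower. Slc6a8, which takes up creatine (chrX:73673150-73682502), was 293, 347 and 812 CPM in Oct4 Ctrl and 496, 778 and 2045 CPM in KO early ICMs (log2 fold change 1.17, SE 0.23, adjusted p = 5.69e-05). In late ICMs it was 515, 693 and 938 CPM and 910.2, 1996 and 3026 CPM (log2 fold change 1.61, SE 0.23, adjusted p = 2.11e-08), with the lowest KO embryo inside the Ctrl range. In Sox2 KO ICMs it was -0.04 early (adjusted p = 0.968) and 0.49 late (adjusted p = 0.156), and the lines differed by 1.21 (adjusted p = 0.00965) and 1.12 (adjusted p = 0.0177). Slc6a13, a carrier of GABA and taurine (chr6:121300227-121337733), was at 0, 0 and 2.68 CPM in Oct4 Ctrl and 3.12, 25.9 and 37.0 CPM in KO late ICMs, with 3 and 140 UMIs in all (log2 fold change 5.13, SE 0.72, adjusted p = 8.63e-09). The highest Ctrl and the lowest KO embryo held 2 UMIs each. It was called in Oct4 KO early ICMs too (log2 fold change 2.12, SE 0.66, adjusted p = 0.0128). Slc6a12, the betaine carrier 5342 bases away, rose in Oct4 KO late ICMs (log2 fold change 1.91, SE 0.66, adjusted p = 0.0196) at a KO median of 1.48 CPM. Slc6a14, a broad carrier of neutral and cationic amino acids, was 4.02, 10.4 and 40.0 CPM in Oct4 Ctrl and 3.49, 32.4 and 97.2 CPM in KO late ICMs (log2 fold change 1.36, SE 0.44, adjusted p = 0.0112). The calls of Slc6a12 and Slc6a14 were not made when the 2 groups were fitted alone or with the first digit of the embryo labels as a block. Slc6a6, the taurine carrier, was called in no KO comparison but differed between lines early, by 1.26 (adjusted p = 0.00952), at 0.84 in Oct4 KO and -0.41 in Sox2 KO. Slc6a4, the serotonin carrier, rose in Sox2 KO late ICMs (log2 fold change 2.15, SE 0.62, adjusted p = 0.0105) to a median of 4.26 CPM.

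**Figure D3:**
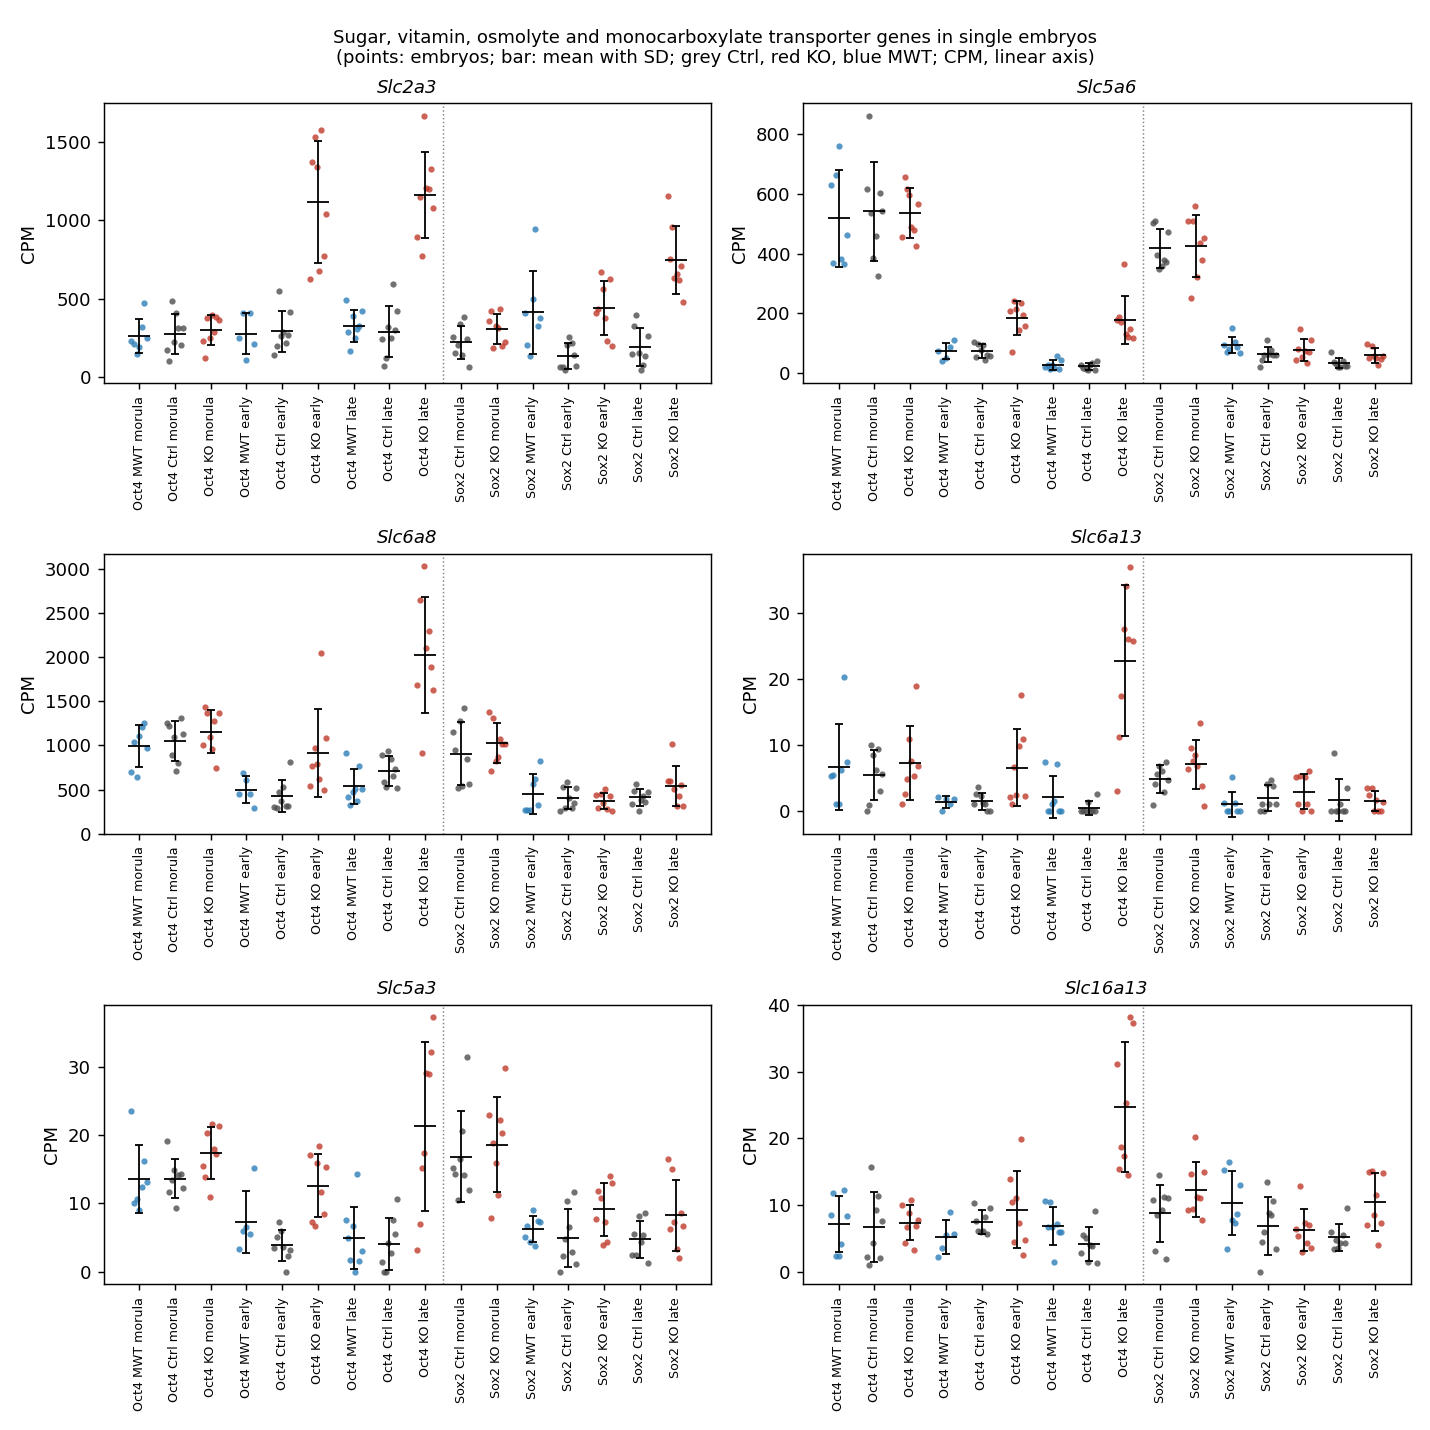
CPM (y axis, linear) of 6 glucose, vitamin, creatine, osmolyte and monocarboxylate carrier genes in every embryo, by group (x axis), with the mean and SD as bars; grey marks Ctrl, red KO and blue MWT embryos. Slc2a3 is higher in KO than in Ctrl ICMs of both lines, while Slc6a13 and Slc16a13 stand highest in the Oct4 KO late ICMs.

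Of the 6 Slc16 members 1 rose and 1 fell in Oct4 KO late ICMs, and 1 rose and 0 fell in Sox2 KO late ICMs, against 18.1% and 6.95% of all genes called in either direction. Slc16a1, which encodes MCT1 and moves lactate and pyruvate, was 31.5, 82.6 and 184 CPM in Oct4 Ctrl and 52.2, 127 and 264 CPM in KO late ICMs (log2 fold change 0.69, SE 0.23, adjusted p = 0.0143), under the size limit. It was called in no KO comparison and overlaps Gm43581 and Gm43585 on the same strand. Slc16a13, a monocarboxylate carrier of less known cargo in the embryo (chr11:70216789-70221064), was 1.34, 3.91 and 9.09 CPM in Oct4 Ctrl and 14.5, 21.9 and 38.2 CPM in KO late ICMs, with every KO embryo above every Ctrl embryo (log2 fold change 2.69, SE 0.39, adjusted p = 1.69e-08). It was also higher in Sox2 KO late ICMs (log2 fold change 1.09, SE 0.38, adjusted p = 0.0414), with overlapping ranges, a call not made with libraries scaled by totals alone or with no filter. Its neighbour Slc16a11, 371 bases away, was called in no KO comparison. Of the chaperones that bring these carriers to the membrane, Bsg stood at 0.81 (SE 0.13, adjusted p = 2.88e-07) in Oct4 KO late ICMs, under the size limit, and Emb was lower there (log2 fold change -1.88, SE 0.76, adjusted p = 0.0463). Slc16a3, the lactate exporter MCT4, was not a member, with 15 UMIs over all embryos and a count in 23.1% of the morulae, and neither was the cystine exchanger Slc7a11, with 13 UMIs and 28.2%.

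**Figure D4:**
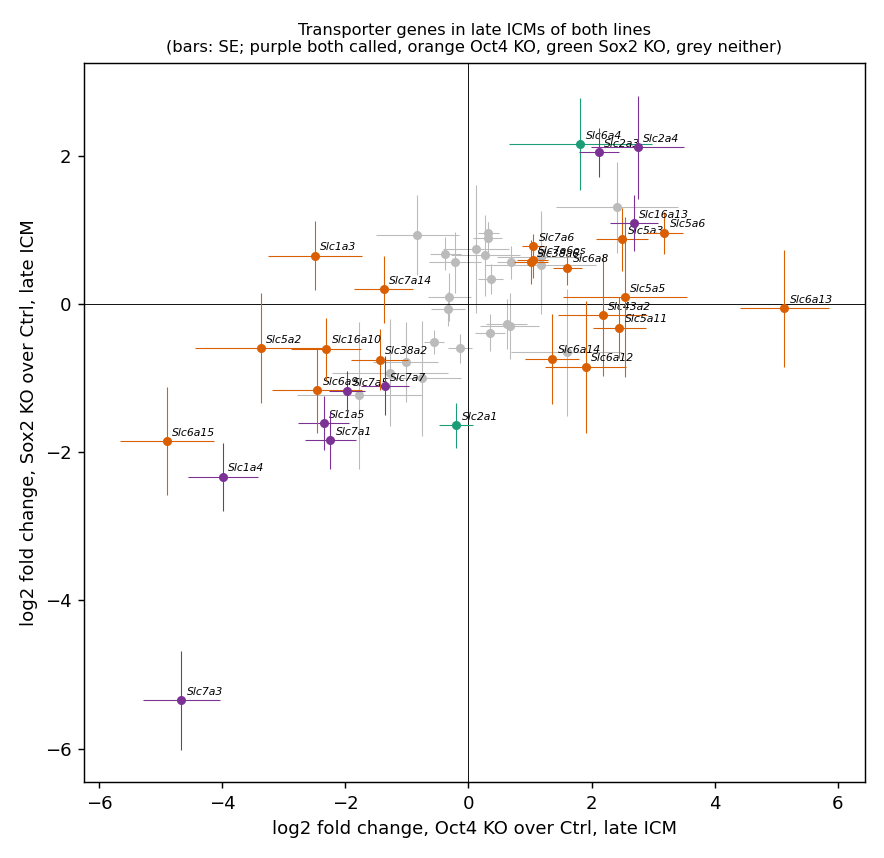
Log2 fold change of each member, KO against Ctrl, in the Oct4 line (x axis) and the Sox2 line (y axis) in late ICMs, with SE bars; purple marks members called in both lines, orange in the Oct4 line, green in the Sox2 line and grey in neither. Of the purple points 6 lie in the corner lower in both lines and 3 in the corner higher in both, Slc2a3, Slc2a4 and Slc16a13.

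The size of the KO effect was compared between lines by the interaction of line and genotype. Each factor was lost in its own line with its own Ctrl embryos, so line and factor cannot be told apart. In early ICMs 3 members had a higher and 4 a lower log2 fold change in the Oct4 KO than in the Sox2 KO, against 2.11% and 3.42% of all genes. The higher ones were Slc6a8, Slc6a6 and Slc2a4 (3.25, adjusted p = 0.0338), the lower ones Slc1a4, Slc1a3, Slc16a10 and Slc7a8. In late ICMs 5 were higher and 2 lower, against 2.81% and 3.49% of all genes. They were Slc6a13, Slc5a11, Slc5a6, Slc2a1 and Slc6a8, and on the lower side Slc1a3 and Slc43a3, a nucleobase carrier (-1.06, adjusted p = 0.0368). The interaction of Slc6a13 was 5.19 (SE 1.19, adjusted p = 0.00165) and came to 2.71 (adjusted p = 0.649) without the 3 Ctrl ICMs high in trophectoderm markers, and that of Slc43a3 to -0.86 (adjusted p = 0.118). That of Slc2a4 in early ICMs came to 3.09 (adjusted p = 0.054) without them, and was not called with no filter either. Of the 6 amino acid carriers lower in both lines in late ICMs, none had a called interaction there, with differences of 0.68 (Slc7a3, SE 1.07), -1.66 (Slc1a4, SE 0.77), -0.40 (Slc7a1, SE 0.57), -0.75 (Slc1a5, SE 0.55), -0.79 (Slc7a5, SE 0.40) and -0.25 (Slc7a7, SE 0.57), which does not show that the lines acted alike.

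The stage comparisons of Ctrl embryos show which carriers the ICM gains and leaves behind, with the culture and isolation that came with the stage. From morula to early ICM 16 members rose and 11 fell in the Oct4 line, against 14.1% and 14.9% of all genes, and 15 rose and 8 fell in the Sox2 line, against 17.2% and 14.7%. Slc38a4 was 13.6, 40.3 and 90.6 CPM in Oct4 Ctrl morulae and 148, 206 and 241 CPM in early ICMs, without overlap (log2 fold change 2.07, SE 0.22, adjusted p = 1.33e-13), and rose in the Sox2 line too (log2 fold change 2.79, SE 0.23, adjusted p = 5.17e-19). Slc2a1 rose from a median of 14.1 to 90.7 CPM in the Oct4 line (log2 fold change 2.38, SE 0.32, adjusted p = 1.01e-09) and from 28.1 to 95.9 CPM in the Sox2 line (log2 fold change 1.55, SE 0.30, adjusted p = 5.91e-06). Slc7a1 rose in both (3.12 and 2.76), as did Slc16a1 (1.01 and 1.26). The Sox2 Ctrl call of Slc7a1 was not made in either fit of the embryos with shared replicate numbers. The vitamin carrier Slc5a6 fell steeply, from 325, 539.6 and 862 CPM to 40.9, 68.6 and 102 CPM in the Oct4 line (log2 fold change -3.02, SE 0.26, adjusted p = 4.61e-18) and with a log2 fold change of -2.83 (SE 0.26, adjusted p = 7.29e-17) in the Sox2 line. The taurine carrier Slc6a6 (-1.72 and -1.60), Slc6a14 (-2.32 and -2.81), Slc6a8 (-1.40 and -1.26), Slc5a11 (-1.60 and -2.02) and Slc16a6, a monocarboxylate carrier whose gene overlaps Arsg and Amz2 (-1.65 and -2.02), fell in both lines.

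From early to late ICM 10 members rose and 6 fell in the Oct4 line, against 9.52% and 6.03% of all genes, and 6 rose and 0 fell in the Sox2 line, against 1.94% and 0.961%. Slc7a3 rose most among the named members in both, from 0, 1.72 and 7.46 CPM to 13.4, 34.7 and 85.6 CPM in the Oct4 line without overlap (log2 fold change 3.90, SE 0.55, adjusted p = 1.11e-08) and with a log2 fold change of 2.40 (SE 0.48, adjusted p = 4.90e-04) in the Sox2 line. Slc7a5 (2.31 and 1.46), Slc7a1 (2.07 and 1.33), Slc1a5 (1.83 and 1.12), Slc7a7 (1.72 and 1.28) and Slc7a8 (1.93 and 1.45) rose in both lines. Slc38a2 rose in the Oct4 line, from 0, 9.05 and 12.5 CPM to 11.7, 45.1 and 122 CPM (log2 fold change 2.76, SE 0.50, adjusted p = 5.60e-06), and stood at 0.82 (SE 0.41, adjusted p = 0.23) in the Sox2 line. Slc5a6 (-1.73), Slc5a11 (-1.97) and Slc16a1 (-1.02) fell in the Oct4 line, the last of them a call not made under RLE scaling or by DESeq2. The Sox2 line count was 2, Slc7a3 and Slc7a5, in the fit without Oct4 Ctrl early ICM 9 and the Sox2 Ctrl late ICMs 1-10 and 2-6, whose trophectoderm markers summed to 2851 and 2073 CPM. There Slc1a5 went from 1.12 to 1.12 (adjusted p = 0.0686), Slc7a1 from 1.33 to 1.19 (adjusted p = 0.0717), Slc7a7 from 1.28 to 1.10 (adjusted p = 0.126) and Slc7a8 from 1.45 to 0.92 (adjusted p = 0.36).

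**Figure D5:**
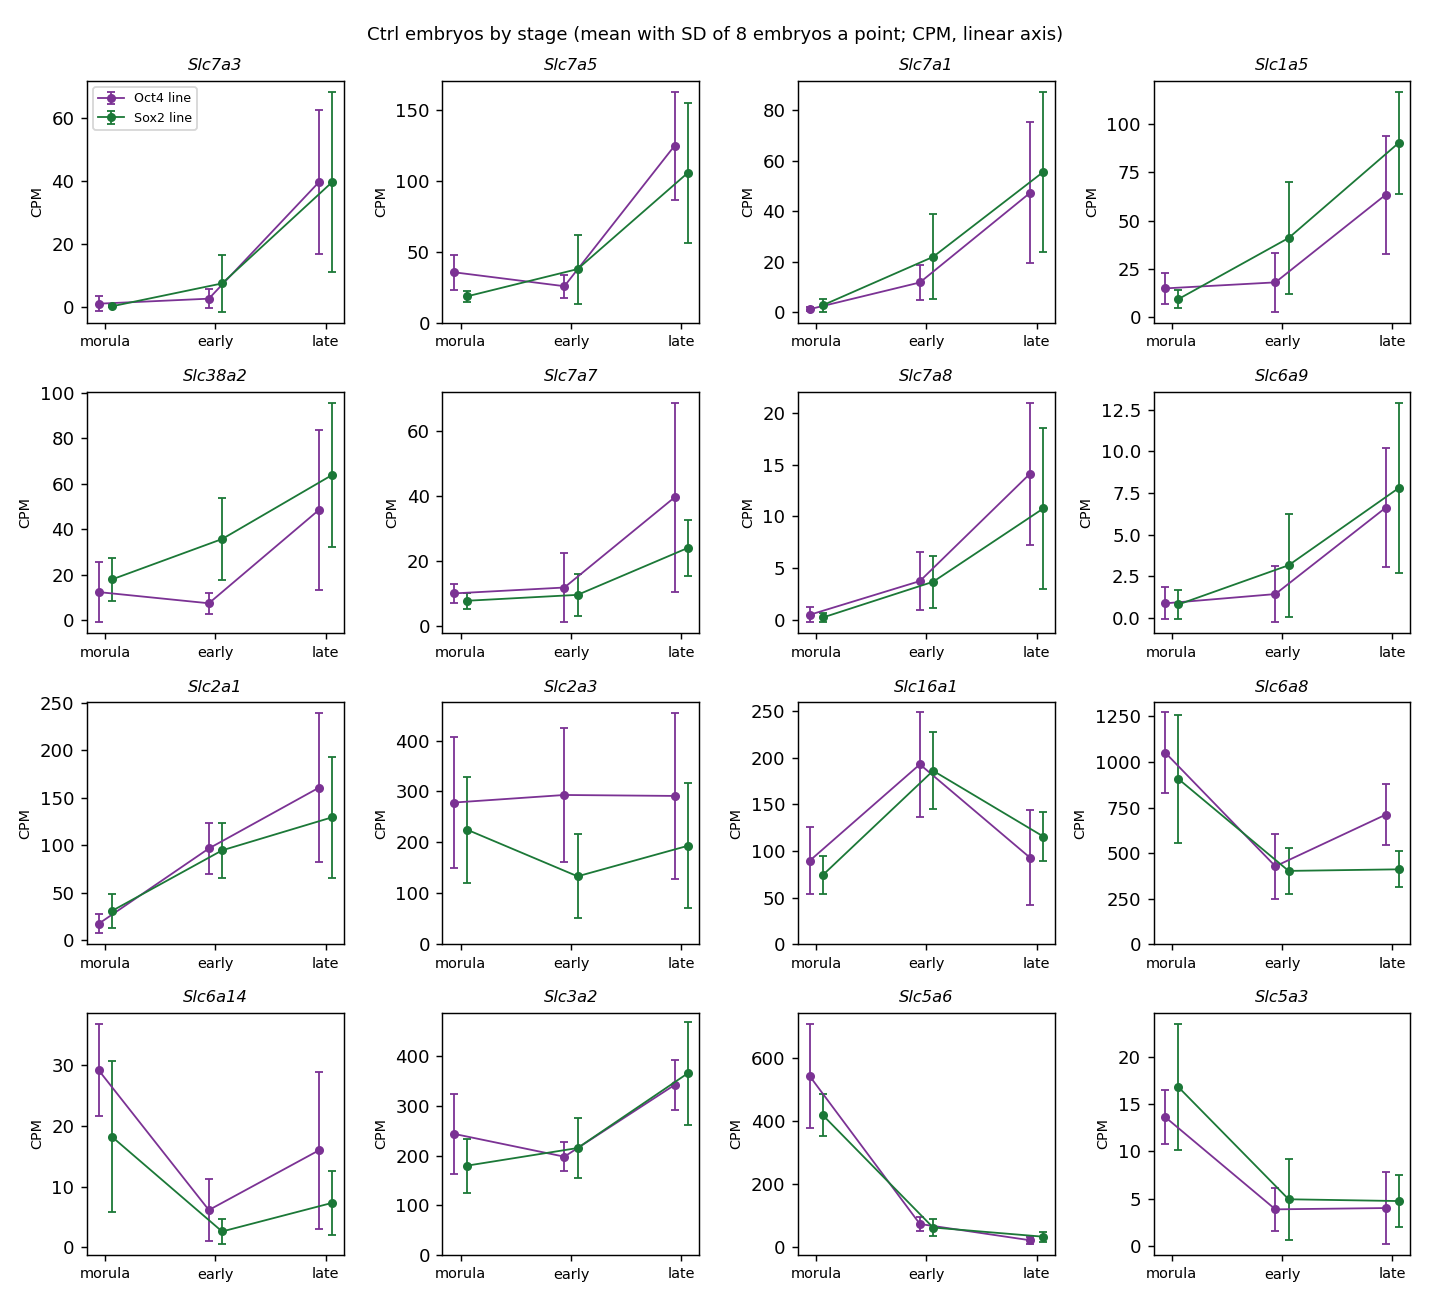
Mean CPM (y axis, linear) with SD of 8 Ctrl embryos at each stage (x axis) for 16 carriers, Oct4 line in purple and Sox2 line in green. Slc7a3 is higher in late than in early ICMs in both lines, and Slc5a6 goes from 541 CPM in Oct4 Ctrl morulae to 72.2 and 20.6 CPM in early and late ICMs.

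Set side by side across lines, which share no embryos, carriers that rose or fell between stages in the Ctrl of one line are given with their calls in KO ICMs of the other. Of the 6 members higher in Sox2 Ctrl late than early ICMs, 5 were lower in Oct4 KO late ICMs (Slc1a5, Slc7a1, Slc7a3, Slc7a5 and Slc7a7), where the same held for 109 of 272 genes in all (40.1%). Without the Ctrl ICMs high in trophectoderm markers the 6 were 2, Slc7a3 and Slc7a5. Of the 10 members higher in Oct4 Ctrl late than early ICMs, 6 were lower in Sox2 KO late ICMs (the same 5 and Slc1a4), against 210 of 1338 genes in all (15.7%). In early KO ICMs 1 of the 6 was lower after Oct4 loss (16.9% of all such genes) and 3 of the 10 after Sox2 loss (5.98%). Among 15 members higher in Sox2 Ctrl early ICMs than morulae, 4 were lower in Oct4 KO early ICMs (18.5%) and 7 in late ICMs (23.6%). For 16 such members of the Oct4 Ctrl it was 3 in Sox2 KO early (4.88%) and 3 in late ICMs (7.90%). In the other direction, of the 8 members that fell from morula to early ICM in the Sox2 Ctrl, 6 were higher in Oct4 KO late ICMs (Slc5a3, Slc5a5, Slc5a6, Slc5a11, Slc6a8 and Slc6a14), against 20.5% of all such genes, and 4 in Oct4 KO early ICMs, against 11.9%. Of the 11 members that fell from morula to early ICM in the Oct4 Ctrl, 0 were called higher in Sox2 KO early or late ICMs, where 2.53% and 5.69% of all such genes were. It was also 0 for the 6 that fell from early to late ICM there, against 2.83% and 12.4%. For Slc5a6 the Oct4 KO late ICM median of 159 CPM stood between the Ctrl late ICM (19.6 CPM) and the Ctrl morula (539.6 CPM), whereas Slc6a8 in Oct4 KO late ICMs (1996 CPM) was above the Ctrl morula (1114 CPM).

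Genes of the amino acid response were counted in the same KO ICMs. Of 12 such genes tested, 1 rose and 7 fell in Oct4 KO late ICMs, and 0 rose and 5 fell in Sox2 KO late ICMs, with a median log2 fold change over the 12 of -1.63 and -0.67. Over all genes 9.25% were higher and 8.85% lower in the Oct4 line, and 3.34% and 3.61% in the Sox2 line. Chac1, which breaks down glutathione and is a target of ATF4, fell by 5.05 on the log2 scale in the Oct4 line (adjusted p = 1.19e-07) and by 2.90 in the Sox2 line (adjusted p = 9.37e-05). Trib3, a pseudokinase that restrains the response, fell by 2.34 (adjusted p = 6.69e-05) and 2.35 (adjusted p = 2.55e-05). Nupr1, Psph and Cebpb were lower in both lines, Psat1 and Atf5 in the Oct4 line, and Phgdh, the first enzyme of serine synthesis, was higher in the Oct4 line (2.61, adjusted p = 1.50e-12). Atf4 itself was -0.20 (adjusted p = 0.287) in the Oct4 and -0.19 (adjusted p = 0.41) in the Sox2 line. From early to late ICM 7 of the 12 rose and 1 fell in the Oct4 Ctrl, and 6 rose and 0 fell in the Sox2 Ctrl. The shares of all genes were 9.52% and 6.03% in the former and 1.94% and 0.961% in the latter. In early ICMs 2 rose and 3 fell in the Oct4 KO, and 0 rose and 2 fell in the Sox2 KO. Over all genes it was 4.77% and 6.11% in the former and 1.57% and 1.69% in the latter. A part of this response in the carrier values was not tested.

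Of 11 genes tested that use amino acids, creatine or taurine, 2 rose and 5 fell in Oct4 KO late ICMs, and 1 rose and 3 fell in Sox2 KO late ICMs. That is 63.6% and 36.4% of the list, against 18.1% and 6.95% of all genes called in either direction. Asns, the asparagine synthetase, was -3.22 (adjusted p = 1.95e-09) and -1.93 (adjusted p = 1.84e-04), and Tdh, the threonine dehydrogenase on which mouse pluripotent cells depend, -4.58 (adjusted p = 6.67e-17) and -2.86 (adjusted p = 5.00e-11). Glul, which makes glutamine, was higher in both (1.25 and 1.16), and Ckb, the brain-type creatine kinase, was lower in the Sox2 line (-2.15, adjusted p = 1.05e-12) and 0.96 (adjusted p = 1.11e-04) in the Oct4 line, where the creatine carrier Slc6a8 rose. In early ICMs the counts were 0 higher and 3 lower in the Oct4 KO and 1 higher and 3 lower in the Sox2 KO, or 27.3% and 36.4% against 10.9% and 3.27% of all genes. Of 15 amino acid sensing genes around the mTORC1 kinase, 2 rose and 0 fell in Oct4 KO late ICMs (Rragd, 2.27, and Lamtor1, 1.20), and 1 rose (Rragd, 1.36) in Oct4 KO early ICMs. These shares of 13.3% and 6.67% were below those of all genes called, 18.1% and 10.9%. In the Sox2 ICM comparisons 0 were called by edgeR, with 3 early and 6 late at an unadjusted p under 0.05.

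Of 15 genes of glycolysis and pyruvate use, 1 rose and 2 fell in Oct4 KO late ICMs, and 0 rose and 1 fell in Sox2 KO late ICMs. In Oct4 KO early ICMs 1 rose and 1 fell, and 0 were called in Sox2 KO early ICMs by edgeR, with 5 at an unadjusted p under 0.05. In late ICMs that is 20% and 6.67% of the list, near the 18.1% and 6.95% of all genes, and in Oct4 early ICMs 13.3% against 10.9%. Pfkp, a phosphofructokinase, was lower in both lines in late ICMs (-3.88, adjusted p = 8.02e-11, and -1.94, adjusted p = 3.21e-05), and Hk1, a hexokinase, was higher in the Oct4 line (1.70, adjusted p = 0.00185). Ldha, which makes lactate from pyruvate, ran from 0 to 28.1 CPM (median 7.89) in Oct4 Ctrl and from 0 to 2.57 CPM (median 0.582) in Oct4 KO late ICMs (log2 fold change -3.61, SE 0.97, adjusted p = 0.00211). Of 5 regulators of glucose uptake, Mlxipl and Txnip went opposite ways in the lines. Mlxipl, a glucose-responsive transcription factor, was -2.21 in Oct4 KO and 3.31 in Sox2 KO late ICMs, a difference of -5.52 (adjusted p = 3.51e-07). Txnip, an arrestin-like protein that takes GLUT1 off the membrane and answers to glucose, was -1.66 and 2.23, a difference of -3.89 (adjusted p = 1.95e-06), while Slc2a3 rose in both lines. Of the 5 genes of this list, Arrdc4, Mlx and Mlxip were called in no KO comparison.

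Few members were called between embryos of mothers with and without the gene. Between MWT and Ctrl embryos of the Oct4 line 0 members were called in morulae, early ICMs and late ICMs by edgeR, where 0.0646%, 0.373% and 0.797% of all genes were called, with 1, 5 and 11 members at an unadjusted p under 0.05 and 0 called by DESeq2 in each. The early comparison set MWT ICMs whose labels name no inhibitor against Ctrl ICMs labelled as treated. Between Sox2 MWT and Ctrl early ICMs 2 were called, against 2.58% of all genes: Slc2a3, given above, and Slc5a4b, which was lower in MWT (log2 fold change -1.68, SE 0.55, adjusted p = 0.0481). The Slc5a4b call was not made with no filter or in either fit of the embryos with shared replicate numbers (adjusted p up to 0.295). The primitive endoderm sums of these groups did not overlap, as given with Slc2a3. Slc7a3 held 0, 56.5 and 128 CPM at its lowest, median and highest in the 8 Oct4 MWT late ICMs, which overlaps the Ctrl range.

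Over the 6 KO comparisons, 23 members were never called, 13 once, 11 in 2, 5 in 3 (Slc7a1, Slc7a3, Slc7a7, Slc6a15 and Slc2a4) and 2 in 4 (Slc1a4 and Slc2a3). As shares of the 54 these are 42.6%, 24.1%, 20.4%, 9.26% and 3.70%, and over all 14053 genes they are 74.0%, 16.1%, 6.67%, 2.30% and 0.840%. The 23 included abundant genes, namely Slc1a1, Slc3a2, Slc38a4, Slc38a7, Slc43a3, Slc6a6, Slc2a8, Slc16a1 and Slc16a6, and also Slc7a8, Slc7a2, Slc38a1, Slc38a9, Slc38a10, Slc16a5 and Slc2a12. The other 7 (Slc3a1, Slc7a9, Slc7a15, Slc38a8, Slc38a11, Slc6a20b and Slc16a11) had group medians of at most 4.36 CPM, a few UMIs per embryo, at which only large differences could be detected.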

How the data were processed

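Per the study's methods, the authors made 3′-end libraries from single embryos, trimmed reads with Cutadapt, aligned them to mm10 with TopHat2 (ERCC spikes with Bowtie2), assigned them to GENCODE vM23 genes with featureCounts and collapsed molecular tags with UMI-tools and TRUmiCount; versions and use of strand are not given in the sources used here. The deposited UMI counts per gene were used as they stand, and the deposited log2 table (DESeq2 rlog) was not used. Members and lists were chosen with earlier results of these data known.

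Genes with at least 1 UMI in 50% of the embryos of a stage were tested with edgeR 4.0.16 (quasi-likelihood F test, TMM scaling, R 4.3.3): 14053 genes in the 96 Ctrl and KO embryos, and 13923 genes in a fit of all embryos for MWT against Ctrl. P-values were adjusted by Benjamini-Hochberg over all genes tested. SE is the log2 fold change divided by the root of F. CPM used library totals, and a fold against 0 used a floor of 3 UMIs over the group, which covers counting error only. Embryo values are given for up to 12 called members per KO comparison and 6 per stage comparison, by absolute log2 fold change where the group with more had a mean of 20 CPM or over, for 12 carriers always named, and for lower members where a result turns on them, which were added after their values were seen. Alternatives were scaling by totals or RLE, no filter, a filter at 10 UMIs, DESeq2 1.42.0, fits of only 2 groups, replicate or label-set blocks, and, added after seeing the data, leaving out 3 Ctrl ICMs above 1200 CPM of summed trophectoderm markers. KO ICMs above that limit were kept, among them every Oct4 KO late ICM (1262 CPM or more). That fit therefore does not match KO and Ctrl for these markers. The fit was run on simulated counts of 2 groups. Changes were planted only in genes with an expected 10 or more UMIs per embryo, so members with fewer were not covered.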

Additional observations from a re-analysis of the deposited data

Results flagged for a closer look

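One embryo stood apart from the other 7 in 5 of 50 groups examined, where chance gives about 1 in 20. Slc6a8 was 2045 CPM in Oct4 KO early ICM 18 (next embryo 1088 CPM) and 812 CPM in Oct4 Ctrl early ICM 9 (next 531 CPM). Slc5a6 was 364 CPM in Oct4 KO late ICM 1-8 (next 186 CPM). In Sox2 KO late ICMs, Slc7a3 was 3.49 CPM in embryo 1-5 (next 1.23 CPM) and Slc7a1 was 40.4 CPM in embryo 2-6 (next 17.4 CPM).

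The KO effect differed between the lines for 14 values, given as the log2 effect of Oct4 loss minus that of Sox2 loss with edgeR's adjusted p. In early ICMs it was -4.40 for Slc1a4 (adjusted p = 0.00605), -3.62 for Slc1a3 (adjusted p = 0.00331), -2.76 for Slc16a10 (adjusted p = 0.0041) and -2.52 for Slc7a8 (adjusted p = 0.031). It was 1.21 for Slc6a8 (adjusted p = 0.00965), 1.26 for Slc6a6 (adjusted p = 0.00952) and 3.25 for Slc2a4 (adjusted p = 0.0338), the last with an adjusted p of 0.054 without the 3 Ctrl ICMs high in trophectoderm markers. In late ICMs it was -3.15 for Slc1a3 (adjusted p = 0.0149), -1.06 for Slc43a3 (adjusted p = 0.0368), 1.12 for Slc6a8 (adjusted p = 0.0177) and 1.44 for Slc2a1 (adjusted p = 0.0133). It was 2.22 for Slc5a6 (adjusted p = 6.64e-05), 2.77 for Slc5a11 (adjusted p = 8.47e-04) and 5.19 for Slc6a13 (adjusted p = 0.00165). Without the 3 Ctrl ICMs high in trophectoderm markers Slc6a13 was 2.71 (adjusted p = 0.649) and Slc43a3 -0.86 (adjusted p = 0.118). The size of the Slc1a4 value depends on the fit, as no Oct4 KO early ICM held a UMI of that gene.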

How the results depend on the processing

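Of 217 alternative values of 25 named results, 201 kept direction and call, 16 kept direction without the call, and 0 reversed. These 25 are KO calls picked by size of change at a mean of 20 CPM or over. The tally does not cover lower members or the stage comparisons. The filter at 10 UMIs, which left 27 members to test, called 7 members in Oct4 KO early ICMs, 16 in Oct4 KO late ICMs, 7 in Sox2 KO late ICMs, 15 in Oct4 Ctrl and 14 in Sox2 Ctrl early ICMs against morulae, and 1 in Sox2 MWT early ICMs (also 1 with no filter). In Oct4 KO morulae 1 was called by DESeq2 and with only the 2 groups. Without the 3 Ctrl ICMs high in trophectoderm markers, 2 rather than 6 were called in Sox2 Ctrl late against early ICMs. Leaving out each Oct4 MWT early ICM gave 0 to 0.

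Whether replicate numbers pair the embryos cannot be decided here, as embryos with different numbers were not correlated for comparison. Correlations of same-numbered embryos ran from -0.201 to 0.233. In Sox2 KO and Ctrl late ICMs 3 of the 4 were at 0.100, 0.182 and 0.233 and the other at -0.027. With the replicate block, on the shared numbers only, 1 member was called in Oct4 KO morulae, 7 in Oct4 KO early ICMs, 15 in Oct4 Ctrl and 13 in Sox2 Ctrl early ICMs against morulae. The same embryos without the block gave 7, 15 and 10 in the last 3. In Sox2 KO early ICMs, Sox2 KO late ICMs and Sox2 MWT early ICMs they gave 4, 8 and 2 with the block and 1, 3 and 1 without it. These fits hold fewer embryos. Without the block they lost the Sox2 late ICM calls of Slc1a4 (adjusted p = 0.063), Slc7a1 (0.143), Slc7a5 (0.456), Slc7a7 (0.553) and Slc2a1 (0.0677), of which the block restored all but Slc7a7 (0.353). Both fits also lost the calls of Slc6a4, Slc2a4 and Slc16a13 there, of Slc7a1 and Slc6a15 in Sox2 KO early ICMs, of Slc5a4b in Sox2 MWT early ICMs, and of Slc1a3, Slc1a4, Slc7a7, Slc6a8, Slc6a13, Slc6a15, Slc2a4, Slc5a2, Slc5a3 and Slc5a4b in Oct4 KO early ICMs. The fit without the block lost those of Slc1a4 and Slc7a3 in Sox2 KO early ICMs. In Sox2 Ctrl early ICMs against morulae both fits lost Slc1a3, Slc1a4, Slc7a1, Slc7a3, Slc7a8, Slc38a11, Slc6a4, Slc6a9, Slc5a2 and Slc5a5. The fit without the block also lost Slc1a5, Slc2a1 and Slc5a3 there. In the same comparison of the Oct4 Ctrl both fits lost Slc1a3, Slc3a1, Slc7a2, Slc7a8, Slc38a9, Slc38a10, Slc38a11, Slc6a13, Slc6a15, Slc2a12, Slc5a5, Slc16a5 and Slc16a11.

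Scaling by totals moved the median of all genes by 0.101 (log2) in Oct4 Ctrl early ICMs against morulae. It changed the split of all genes from 469 higher and 508 lower to 379 and 628 in Sox2 KO late ICMs, from 1300 and 1244 to 1108 and 1430 in Oct4 KO late ICMs, from 1988 and 2092 to 2260 and 1831 in Oct4 Ctrl early ICMs against morulae, and from 38 and 73 to 55 and 65 in Oct4 MWT late ICMs. The causes were not tested. At these depths members under a few CPM rest on single UMIs.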
